A study of Mus musculus with 78 samples.

Results

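Noto, Foxj1, Chrd, Nog and Shh are 5 genes known from the node and the notochord of the mouse embryo. They were taken by symbol from the gene column of the deposited expression tables, and are 5 of the 22563 genes that the 3 tables share. Expression had been measured as FPKM, fragments scaled by transcript length and by the number of mapped fragments, in 30 RNA-seq libraries of C57BL/6N x DBA/2N embryos, 2 libraries for each of 15 groups. No library was labelled as node or notochord. The 22 in vivo libraries covered 11 tissues. From E7.5 these were endoderm, mesoderm, primitive streak and ectoderm, and from E6.5 and E5.5 epiblast and visceral endoderm, all from natural matings. From E4.0 there was inner cell mass, and from E3.5 inner cell mass and trophectoderm, after superovulation. The other 8 libraries came from embryos of superovulated females, flushed at E4.5 and kept in CMRL 1066 medium with 20% fetal bovine serum. These were epiblast and visceral endoderm after 4 days, and whole embryos, as the labels name them, after 2 days and 1 day. The labels of these groups name no mutation or transgene. The labels do not say whether the 2 libraries of a group came from separate litters, so p-values measure the spread between these libraries, which may be technical.

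The node forms at the anterior end of the primitive streak and gives rise to the notochord, the rod of axial mesoderm below the neural tube. Its cells carry motile cilia whose beating sets the left-right axis, and their ciliated face lies at the outer surface of the embryo, in the plane of the endoderm. Noto encodes a homeodomain transcription factor of node and notochord that acts upstream of Foxj1 there, and Foxj1 encodes a forkhead transcription factor that switches on genes of motile cilia. Chrd and Nog encode the secreted BMP antagonists chordin and noggin, and Shh encodes the hedgehog ligand by which node and notochord pattern the tissue around them.

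Promoter sequences are shown where they were at hand. Noto and Chrd were both highest in E7.5 endoderm, and their gene starts differ in CpG content. RefSeq promoter windows, 250 bases before to 50 bases after the gene start in GRCm38.p6, were at hand for 2 of the 5 genes, Noto and Chrd. The Noto window is chr6:85423636-85423935 and the Chrd window chr16:20732877-20733176, both on the plus strand. In the Noto line capitals mark a match to the forkhead motif TGTTTGC, read on the other strand, and in the Chrd line they mark CpG dinucleotides.
Noto: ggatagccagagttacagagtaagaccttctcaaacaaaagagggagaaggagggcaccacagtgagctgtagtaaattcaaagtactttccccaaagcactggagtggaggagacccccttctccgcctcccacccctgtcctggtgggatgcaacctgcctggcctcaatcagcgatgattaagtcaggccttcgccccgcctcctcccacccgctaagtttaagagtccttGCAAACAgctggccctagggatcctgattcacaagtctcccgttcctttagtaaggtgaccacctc
Chrd: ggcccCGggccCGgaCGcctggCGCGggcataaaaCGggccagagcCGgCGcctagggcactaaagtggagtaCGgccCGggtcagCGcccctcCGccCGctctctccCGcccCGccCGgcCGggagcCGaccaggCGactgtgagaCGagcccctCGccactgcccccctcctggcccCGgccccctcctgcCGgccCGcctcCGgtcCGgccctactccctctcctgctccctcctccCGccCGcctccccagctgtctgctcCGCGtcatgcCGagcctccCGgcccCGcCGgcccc
The Noto window held 6 CpG dinucleotides and 54.0% G and C, and the Chrd window 34 and 78.3%. The median over 32851 promoter windows of the same length was 7 CpG, and 7.73% of windows held as many as Chrd. The forkhead match in the Noto window begins at base 235, 16 bases before the gene start, and 5.07% of all windows hold that motif on either strand. Of 9 motifs searched on both strands it was the one with a match in either window. The other motifs searched were TGTTTAC for forkhead factors, CATTCC for TEAD factors, AGGTGTGA for the T-box, GTTGCC for RFX factors, GACCACCCA for GLI factors, TAATTA for homeodomain factors, GTCTAGAC for SMAD factors and TATAAA for the core promoter box. They stand in 3.65%, 14.7%, 1.28%, 12.5%, 0.253%, 5.29%, 0.213% and 13.6% of all windows in that order.

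The libraries' own markers bear on what each tissue label holds. The 8 visceral endoderm markers summed to 7543 and 6910 FPKM in E7.5 endoderm, close to the 6493 and 7172 FPKM of E6.5 visceral endoderm, against 2.33 to 10.7 FPKM in mesoderm, streak and ectoderm of E7.5. The 8 definitive endoderm markers summed to 1367 and 1356 FPKM in E7.5 endoderm, against 601 and 647 FPKM in E6.5 visceral endoderm and 24.0 to 96.0 FPKM in the other E7.5 tissues. The 8 markers of trophectoderm and extraembryonic ectoderm summed to 1285 and 1196 FPKM in E7.5 endoderm, against 74.98 to 399 FPKM in the other E7.5 tissues and 967 and 1167 FPKM in E6.5 visceral endoderm. Most of that sum was Krt8 and Krt18, keratins of simple epithelia, at 402 and 855 FPKM in endoderm replicate 1, where the trophoblast factor Elf5 was at 0.0647 FPKM. The part of these markers in the results was not tested. The replicates of an in vivo E7.5 group correlated at 0.976 (ectoderm) to 0.996 (mesoderm) across genes on the log2(FPKM+1) scale. In bulk tissue, fewer cells of a type and less RNA per cell cannot be told apart.

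**Figure D1:**
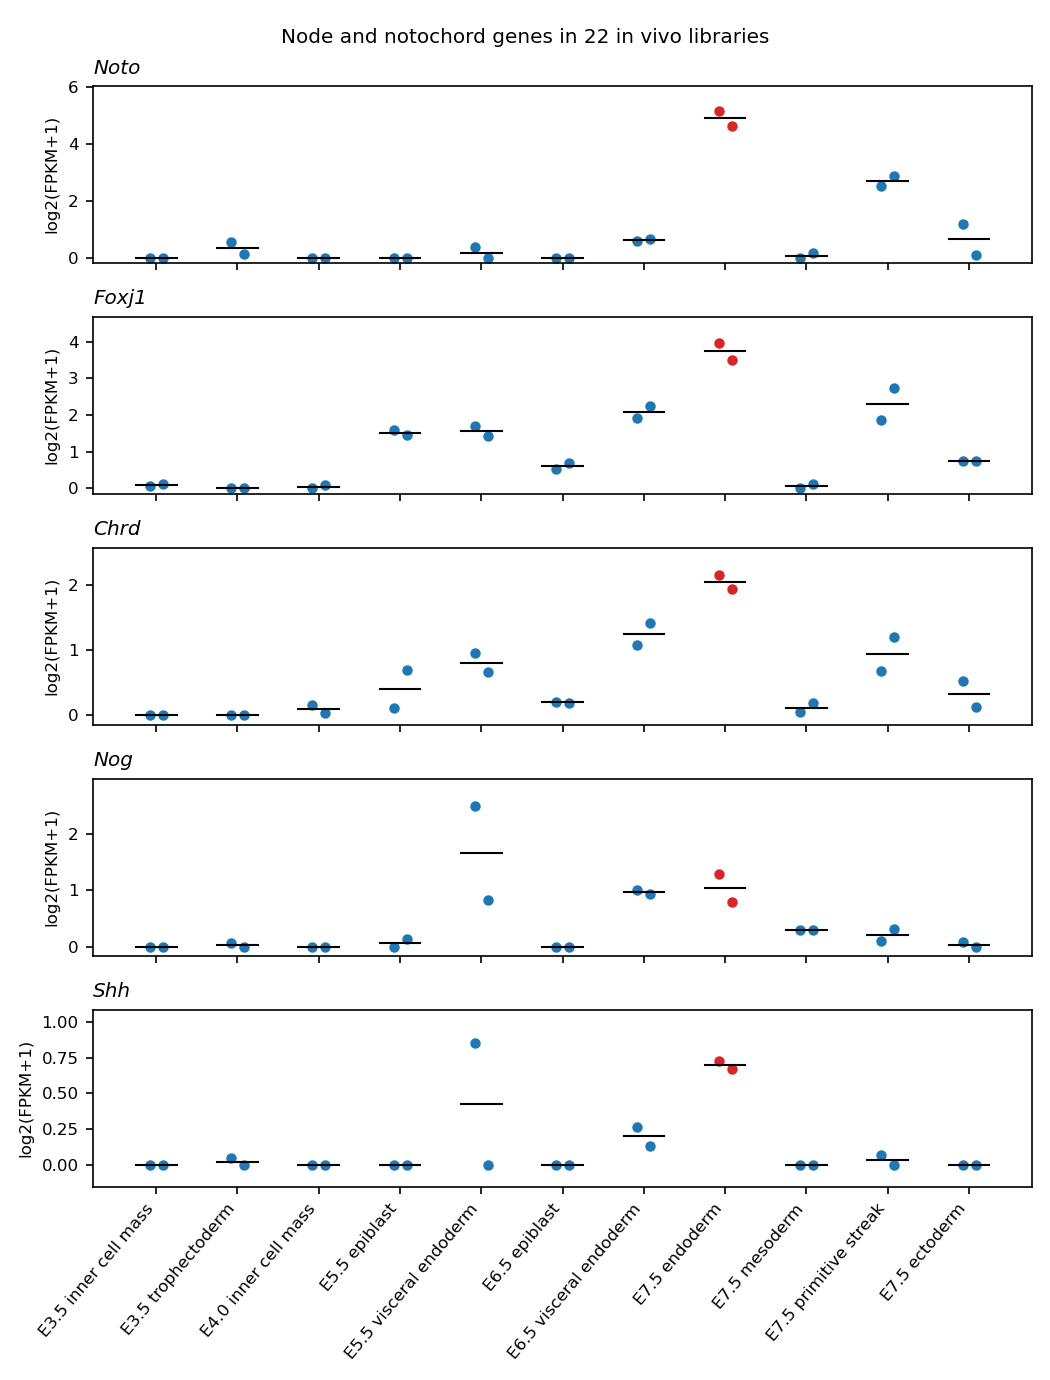
Expression of the 5 genes, as log2(FPKM+1), in the 22 in vivo libraries; points are libraries, bars are means of 2, red is E7.5 endoderm, and each panel has its own vertical scale. Noto, Foxj1 and Chrd were highest in E7.5 endoderm, while Nog was highest in 1 library of E5.5 visceral endoderm at 4.62 FPKM.

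Noto stood out in 2 of the 11 in vivo tissues. It had 34.6 and 23.8 FPKM in E7.5 endoderm, against 4.79 and 6.33 FPKM in primitive streak, 1.30 and 0.0971 FPKM in ectoderm and 0 and 0.147 FPKM in mesoderm. Both endoderm libraries lay above both streak libraries, and both streak libraries above every other in vivo library. Next came E7.5 ectoderm and E6.5 visceral endoderm, at 0.510 and 0.585 FPKM, whose ranges overlapped. Noto was listed at 0 in both libraries of E3.5 and E4.0 inner cell mass and of E5.5 and E6.5 epiblast, and in 10 of 22 in vivo libraries in all. In E7.5 endoderm 12.7% of all genes had a higher mean than Noto.

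Each difference of Noto between E7.5 tissues was called, except mesoderm against ectoderm, where neither mean reached 1 FPKM and no test was read. A call needed an adjusted p under 0.05 in limma, Benjamini-Hochberg over all 13493 genes tested, and a log2 fold of at least 1 on the log2(FPKM+1) scale, which understates changes of low values. On that scale Noto was higher in endoderm than in mesoderm by 4.80 ± 0.28 (SE; limma adjusted p = 5.6e-11), in a comparison where 10.2% of genes were called. It was higher in endoderm than in primitive streak by 2.19 ± 0.28 (limma adjusted p = 6.6e-06; 11.1% of genes called) and than in ectoderm by 4.23 ± 0.28 (limma adjusted p = 4.9e-10; 13.7% called). The streak in turn exceeded ectoderm by 2.04 ± 0.28 (limma adjusted p = 8.0e-05), in a comparison where 1.98% of genes were called. Mesoderm was lower than streak by a log2 value of -2.60 ± 0.28 (limma adjusted p = 2.0e-06; 3.38% of genes called). These comparisons share libraries and are not independent of each other. With a pseudocount of 0.1 FPKM the calls of endoderm against streak (limma adjusted p = 0.11) and of streak against ectoderm (limma adjusted p = 0.064) were lost.

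The ectoderm libraries differed in Noto, and the sums of all 8 marker lists were higher in the same library. Ectoderm replicate 1, with 1.30 FPKM of Noto, had 26.4 FPKM of the 8 primitive streak markers and 70.3 FPKM of the definitive endoderm markers. Replicate 2, with 0.0971 FPKM of Noto, had 8.97 and 24.0 FPKM of the same lists. The ectoderm markers themselves summed to 167 FPKM in replicate 1 and 130 FPKM in replicate 2. Their part in the Noto value was not tested.

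Noto was followed into E7.5 from both tissues of E6.5. It was at 34.6 and 23.8 FPKM in E7.5 endoderm, against 0.510 and 0.585 FPKM in E6.5 visceral endoderm, a log2 difference of 4.27 ± 0.28 (limma adjusted p = 2.0e-09; 4.26% of genes called). It was at 4.79 and 6.33 FPKM in E7.5 primitive streak, whereas both E6.5 epiblast libraries listed it at 0, so no fold is given. That difference too was called (limma adjusted p = 1.1e-06; 3.74% of genes called).

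The streak's mean was set against the endoderm mean for each gene. Mean Noto in streak was 19.0% of its mean in endoderm, Foxj1 33.0%, Chrd 30.3%, Nog 14.7% and Shh 4.03%. The Shh share rests on streak values of 0.0502 and 0 FPKM, and the Nog share on 0.0721 and 0.247 FPKM. The streak libraries also differed in Foxj1, at 2.60 and 5.67 FPKM, and in Chrd, at 0.603 and 1.30 FPKM. These shares are ratios of means of 2 libraries without a spread, so no order among the 5 genes can be read from them. The visceral endoderm markers in streak were at 0.104% of their sum in endoderm and the definitive endoderm markers at 4.24%. Foxa2, a forkhead factor of node, notochord and endoderm, was at 2.51%, and Sox17, an endoderm factor, at 0.95%. Other items were higher in streak than in endoderm: the T-box factor T at 671%, the streak markers at 1159% and the mesoderm markers at 1002%. Their part in the values of the 5 genes was not tested.

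Foxj1 followed Noto at E7.5 but was also present earlier. It had 14.8 and 10.3 FPKM in E7.5 endoderm, against 2.60 and 5.67 FPKM in primitive streak, 0.663 and 0.688 FPKM in ectoderm and 0 and 0.0863 FPKM in mesoderm. Endoderm lay above streak, streak above ectoderm and ectoderm above mesoderm with no overlap. In both libraries of E7.5 endoderm Noto exceeded Foxj1 by nearly the same ratio of FPKM, 2.34 and 2.31. In streak that ratio was 1.84 and 1.12, and in replicate 2 of E6.5 visceral endoderm it was 0.157, so Foxj1 was the higher of the pair there.

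Foxj1 was higher in E7.5 endoderm than in mesoderm by a log2 value of 3.68 ± 0.38 (limma adjusted p = 3.6e-07), than in ectoderm by 3.0 ± 0.38 (limma adjusted p = 7.1e-06) and than in streak by 1.45 ± 0.38 (limma adjusted p = 0.013). Mesoderm differed from streak by -2.23 ± 0.38 (limma adjusted p = 6.6e-04). Streak exceeded ectoderm by 1.55 ± 0.38 (limma adjusted p = 0.030) and E6.5 epiblast by 1.68 ± 0.38 (limma adjusted p = 0.010). The last 2 calls and that of endoderm against streak were each lost when any of several libraries was left out. Streak against ectoderm had a log2 value of 1.1 without streak replicate 2 (limma adjusted p = 0.58) and of 1.54 and 1.56 without either ectoderm library (0.069 and 0.22). Streak against E6.5 epiblast had 1.24 without streak replicate 2 (limma adjusted p = 0.24) and 1.6 and 1.77 without either epiblast library (0.11 and 0.059). Endoderm against streak had 1.21 without endoderm replicate 1 (limma adjusted p = 0.16) and 1.003 without streak replicate 1 (0.25). With a pseudocount of 0.1 FPKM these 3 calls were lost too (limma adjusted p = 0.31, 0.11 and 0.30), and the first was also lost with low genes kept (0.052) and with array weights (0.13).

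Foxj1 was higher at E5.5 than at E4.0. It had 1.99 and 1.76 FPKM in E5.5 epiblast and 2.23 and 1.70 FPKM in E5.5 visceral endoderm, against 0 and 0.0587 FPKM in E4.0 inner cell mass. Both E5.5 tissues lay above all blastocyst libraries and overlapped each other. The log2 difference from E4.0 inner cell mass was 1.48 ± 0.38 for E5.5 epiblast (limma adjusted p = 0.0082; 17.6% of genes called) and 1.52 ± 0.38 for E5.5 visceral endoderm (limma adjusted p = 0.0033; 35.4% of genes called). The epiblast value was not called without E5.5 epiblast replicate 1 (limma adjusted p = 0.057). Embryos of E3.5 and E4.0 came after superovulation and were lysed directly. Those of E5.5 to E7.5 came from natural matings and went through a column kit. Stage, superovulation and RNA preparation thus cannot be told apart in these differences.

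Epiblast and visceral endoderm differed in Foxj1 at E6.5. At E6.5 it had 0.437 and 0.622 FPKM in epiblast, against 2.77 and 3.72 FPKM in visceral endoderm. The groups did not overlap, and the log2 difference was -1.47 ± 0.38 (limma adjusted p = 0.0087; 16.5% of genes called, with 9.58% of genes lower in epiblast). At E5.5 the same difference was -0.04 ± 0.38 (limma adjusted p = 0.96; 36.7% of genes called), where the median over all genes was 0.36. The change in the difference between stages was -1.42, with a 95% interval of -2.55 to -0.29 and a limma adjusted p of 0.11. The median change over all genes was -0.41, or -0.04 under quantile normalization. Of all genes 6.07% were called, 107 as higher and 712 as lower. When the in vivo table was fitted alone, the Foxj1 change was called (limma adjusted p = 0.018). It was also called without either cultured visceral endoderm library (limma adjusted p = 0.027 and 0.028). The E6.5 call itself was lost without E6.5 epiblast replicate 1 (limma adjusted p = 0.074) or visceral endoderm replicate 2 (0.095), and with a pseudocount of 0.1 FPKM (0.054). Between stages Foxj1 in E6.5 against E5.5 epiblast differed by -0.91 (95% interval -1.71 to -0.11; limma adjusted p = 0.42; 0.978% of genes called), where the median over all genes was 0.10. In E6.5 against E5.5 visceral endoderm it differed by 0.51 (-0.29 to 1.31; limma adjusted p = 0.34; 27.2% of genes called), where that median was 0.50. From E6.5 visceral endoderm to E7.5 endoderm Foxj1 was higher, at 14.8 and 10.3 FPKM against 2.77 and 3.72 FPKM, by 1.66 ± 0.38 (limma adjusted p = 0.0096), a call that was lost without E7.5 endoderm replicate 1 (limma adjusted p = 0.16) or E6.5 visceral endoderm replicate 1 (0.12), and with a pseudocount of 0.1 FPKM (0.39).

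**Figure D2:**
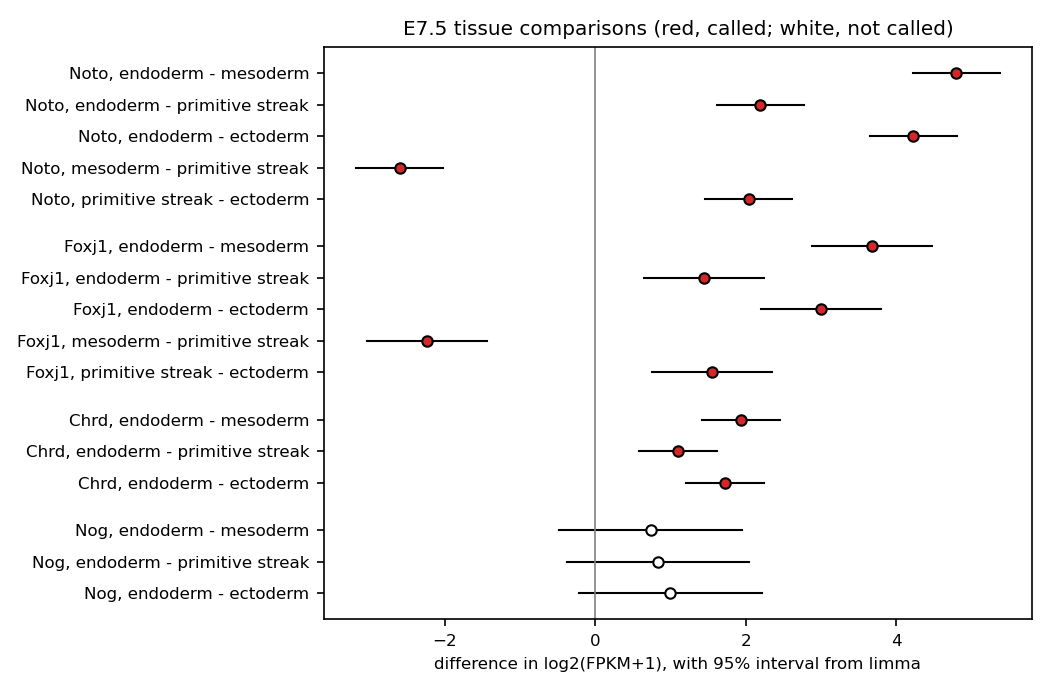
Differences in log2(FPKM+1) between E7.5 tissues for the 4 genes tested, the first-named tissue minus the second, with 95% intervals from limma; red points were called and white points were not. Noto, Foxj1 and Chrd exceeded 1 in endoderm against each other tissue, and all 3 Nog intervals include 0. The intervals use 1 spread per gene over all 15 groups, not only those of E7.5.

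Chrd had the same order of E7.5 tissues at lower levels. It had 3.45 and 2.83 FPKM in E7.5 endoderm, against 0.603 and 1.30 FPKM in primitive streak, 0.438 and 0.0886 FPKM in ectoderm and 0.0328 and 0.133 FPKM in mesoderm. Both endoderm libraries lay above all others in vivo, while streak and ectoderm did not overlap and ectoderm and mesoderm did. Endoderm exceeded mesoderm by a log2 value of 1.93 ± 0.25 (limma adjusted p = 6.8e-06), ectoderm by 1.72 ± 0.25 (limma adjusted p = 3.1e-05) and streak by 1.1 ± 0.25 (limma adjusted p = 0.0036). The call against streak was lost with a pseudocount of 0.1 (limma adjusted p = 0.26), under quantile normalization (log2 value 0.98), and without endoderm replicate 1 (0.996) or streak replicate 1 (0.84).

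Chrd was also present in visceral endoderm. It had 0.153 and 0.138 FPKM in E6.5 epiblast, against 1.12 and 1.68 FPKM in E6.5 visceral endoderm, a log2 difference of -1.06 ± 0.25 (limma adjusted p = 0.0040). That call was lost without E6.5 visceral endoderm replicate 2 (log2 value -0.89) and under quantile normalization (-0.98). E7.5 endoderm exceeded E6.5 visceral endoderm by 0.79, with a 95% interval of 0.28 to 1.31, which was not called (limma adjusted p = 0.079). Between E5.5 and E6.5 visceral endoderm the value was 0.44, with an interval of -0.08 to 0.96 (limma adjusted p = 0.19), where the median over all genes was 0.50.

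The RefSeq span of Chrd overlaps that of Thpo, the thrombopoietin gene, in GRCm38.p6. Thpo had 5.46 and 5.69 FPKM in E7.5 endoderm, against 0.466 and 0.771 FPKM in streak and 4.73 and 3.99 FPKM in E6.5 visceral endoderm, so it too was high in endoderm. The sources used here do not say how fragments that fall on both genes were assigned or whether strand was used. The part of Thpo in the Chrd values was not tested.

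Nog, which codes for the other BMP antagonist, followed visceral endoderm rather than the E7.5 order. In vivo it was highest in E5.5 visceral endoderm, at 4.62 and 0.785 FPKM, against 1.45 and 0.728 FPKM in E7.5 endoderm and 1.00 and 0.904 FPKM in E6.5 visceral endoderm. The 3 ranges overlapped, and the E5.5 libraries were far apart. All other in vivo libraries were at 0.247 FPKM or below, and 9 of 22 listed Nog at 0.

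At E7.5 no difference of Nog was called. Endoderm had 1.45 and 0.728 FPKM, against 0.235 and 0.239 FPKM in mesoderm, 0.0721 and 0.247 FPKM in streak and 0.0658 and 0 FPKM in ectoderm. Both endoderm libraries were the highest of the stage. The model gives each gene 1 spread over all groups, so the intervals below also carry gaps in other tissues. On the log2(FPKM+1) scale Nog was at 2.49 and 0.836 in E5.5 visceral endoderm and at 3.72 and 0.580 in cultured visceral endoderm. At E7.5 the widest pair was that of endoderm, at 1.29 and 0.789. The log2 difference of endoderm was 0.73 from mesoderm (95% interval -0.48 to 1.95; limma adjusted p = 0.60), 0.83 from streak (-0.38 to 2.05; limma adjusted p = 0.47) and 0.99 from ectoderm (-0.22 to 2.21; limma adjusted p = 0.31, or 0.031 and called with a pseudocount of 0.1). From E6.5 visceral endoderm to E7.5 endoderm it was 0.07 (-1.14 to 1.29; limma adjusted p = 1).

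In vivo the calls of Nog involved E5.5 visceral endoderm. Epiblast had 0 and 0.102 FPKM at E5.5, against 4.62 and 0.785 FPKM in visceral endoderm, a log2 difference of -1.59 ± 0.58 (limma adjusted p = 0.032; 9.6% of genes called as lower in epiblast). Visceral endoderm at E5.5 was also called against E4.0 inner cell mass, where both libraries listed Nog at 0 (limma adjusted p = 0.027). Stage, superovulation and RNA preparation cannot be told apart in that comparison either. Neither call held without E5.5 visceral endoderm replicate 1, the library with 4.62 FPKM, with limma adjusted p of 0.42 and 0.38. The first was also lost without either E5.5 epiblast library (0.12 and 0.085) and the second without either E4.0 library (0.091 and 0.097), and with low genes kept in the test both were lost (0.083 and 0.073).

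Shh stayed below 1 FPKM in every library and was not tested. It had 0.654 and 0.590 FPKM in E7.5 endoderm, 0.0502 and 0 FPKM in primitive streak, and 0 in all 4 libraries of mesoderm and ectoderm. Earlier it had 0.205 and 0.0996 FPKM in E6.5 visceral endoderm and 0.808 and 0 FPKM in E5.5 visceral endoderm, and 15 of 22 in vivo libraries listed it at 0. Endoderm at E7.5 lay above all other in vivo libraries except E5.5 visceral endoderm replicate 1. Shh overlaps the RefSeq span of 9530036O11Rik, which had 0.182 and 0.0381 FPKM in E7.5 endoderm and 0 in mesoderm, streak and ectoderm.

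The depth behind these low values can be read from the tables. Low FPKM values of a library were mostly whole multiples of a smallest step, the value of 1 fragment. Of 27386 values of 2 to 10 steps over 3899 genes, 82.2% were whole within 0.1 of a step, where an even spread would give 20.0%. The step of each gene was fitted to its own values, and genes without several values near 1 step were left out. The 20.0% is thus lower than a like reference would be. Each member's values were scaled by that step to the smallest whole numbers of fragments that match. The value of 1 fragment differed 3.23-fold between in vivo libraries, so depth was unequal. The counts are estimates of depth and were not tested.

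On that scale Noto in E7.5 endoderm rested on 388 and 319 fragments, Foxj1 on 283 and 236 and Chrd on 86 and 84. Noto in streak rested on 54 and 83 fragments and in ectoderm on 16 and 1. Nog rested on 20 and 12 fragments in E7.5 endoderm and on 36 and 6 in E5.5 visceral endoderm, and Shh on 13 and 14 in E7.5 endoderm and 9 and 0 in E5.5 visceral endoderm. The Shh and Nog levels thus rested on few fragments. Over the 5 genes together, E7.5 endoderm gave 790 and 665 fragments, against 121 and 253 in streak, 43 and 15 in ectoderm and 5 and 12 in mesoderm.

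Across the 4 testable members, 13 of 16 tests between E7.5 tissues were called, 11 as higher in the first-named tissue, and the 3 not called were those of Nog. A member test was read only where the higher group's mean reached 1 FPKM. For Chrd and Nog at E7.5 only endoderm reached it, which fixes their direction. The shares of all genes given below follow no such rule and are not a like measure. Of the other tests, 4 of 6 from E6.5 to E7.5, 3 of 11 among the epiblast and visceral endoderm groups, 3 of 3 from blastocyst to E5.5 and 1 of 2 in culture were called. Of all genes, 1.98% to 13.7% were called in the 5 pairs of E7.5 tissues that had a member test and 3.74% to 4.26% from E6.5 to E7.5. The shares were 0.978% to 36.7% among epiblast and visceral endoderm, 17.6% to 35.4% from blastocyst to E5.5 and 24.5% in culture.

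Similarity of pattern was measured over the 11 in vivo group means on the log2(FPKM+1) scale, as Pearson's r. It is a description of 11 means that share their processing and differ in depth. Among the members Foxj1 and Chrd were closest (r = 0.97), followed by Nog and Shh (r = 0.85) and by Noto with Chrd (r = 0.84) and with Foxj1 (r = 0.83). Noto and Nog were farthest apart (r = 0.29). The Nog and Shh means in E5.5 visceral endoderm leaned on replicate 1, at 4.62 and 0.808 FPKM, against 0.785 and 0 FPKM in replicate 2. Of 8774 genes with a group mean of at least 5 FPKM, the 3 most like Noto were Enkur (r = 0.99), Ccdc19 (r = 0.97) and Wdr16 (r = 0.96). Enkur ranged from 9.11 to 12.9 FPKM in E7.5 endoderm, against 2.38 to 2.81 FPKM in streak and 0.329 to 0.619 FPKM in E6.5 visceral endoderm. Those most like Foxj1 were Pifo (r = 0.90), Mb21d2 (r = 0.89) and Zmynd10 (r = 0.88), and Pifo had 36.1 FPKM in E7.5 endoderm against 6.02 FPKM in streak. Chrd was most like Foxj1, then Erich2 and Samd3 (both r = 0.93), and Nog most like Tpcn1 (r = 0.99), Foxa1 (r = 0.97) and Maf (r = 0.96). Foxa1, a forkhead factor of endoderm, had 5.83 FPKM in E7.5 endoderm, 5.72 FPKM in E6.5 and 13.4 FPKM in E5.5 visceral endoderm. The similar genes were picked on these same means, so their shared peaks follow from the choice. Enkur, Ccdc19, Wdr16, Zmynd10, Erich2 and Samd3 reached a mean of 5 FPKM in vivo only in E7.5 endoderm, which fixes where they peak.

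**Figure D3:**
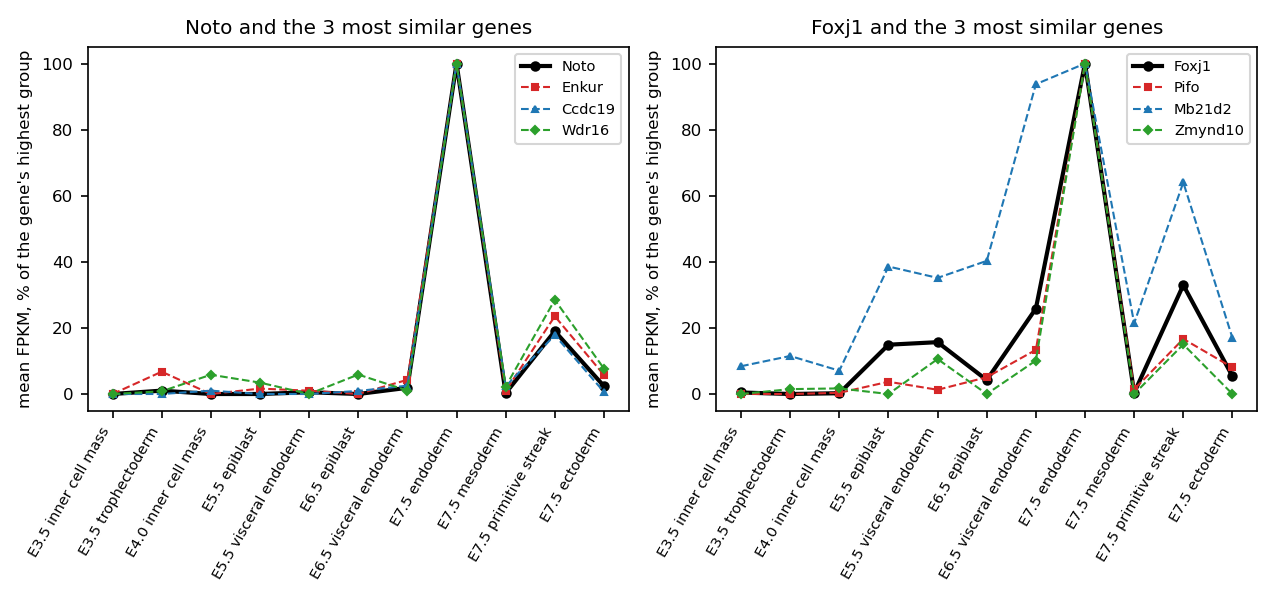
Mean FPKM of Noto (left) and Foxj1 (right) with the 3 genes most similar in pattern, each as a percentage of its own highest group mean, over the 11 in vivo tissues. All genes shown peak in E7.5 endoderm, and Mb21d2 differs from the others in its high values at E5.5 and E6.5. The similar genes were picked on these same means, so a shared peak follows from the choice.

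Genes of motile cilia, the programme that Foxj1 governs, were high in the same tissue. Of 24 listed genes 23 were in the tables and 17 passed the filter of 1 FPKM in 2 libraries, 4 of these only through E7.5 endoderm, which fixes their direction. In E7.5 endoderm against E6.5 visceral endoderm 14 rose and 0 fell, where 3.39% of all genes were called higher, and 10 of 13 rose when those 4 genes were set aside. The list's median log2 difference was 1.67, against 0.08 over all genes. Against mesoderm 11 of 17 rose, against ectoderm 9 and against streak 5, where 7.97%, 11.7% and 8.19% of all genes were called higher, and 0 fell in each. With the same 4 genes set aside, 8, 6 and 4 of 13 rose against mesoderm, ectoderm and streak in that order. Under quantile normalization 8 rose against E6.5 visceral endoderm, 8 against mesoderm, 7 against ectoderm and 5 against streak. On the FPKM as deposited, the 5 that rose against streak were Tekt1, Tekt2, Tekt4, Zmynd10 and Rsph4a, and 3 rose without endoderm replicate 1 or with a pseudocount of 0.1 FPKM.

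Tekt1, which encodes a microtubule protein of cilia, led the list. It averaged 13.7 FPKM in E7.5 endoderm, against 4.28 FPKM in streak, 1.10 FPKM in mesoderm, 0.994 FPKM in ectoderm and 0.230 FPKM in E6.5 visceral endoderm. It rose against each, by 3.55 ± 0.34 from E6.5 visceral endoderm (limma adjusted p = 5.0e-07) and 1.45 ± 0.34 from streak (limma adjusted p = 0.0049). Zmynd10, needed to assemble ciliary dynein arms, averaged 6.82 FPKM in E7.5 endoderm against 1.02 FPKM in streak (limma adjusted p = 6.0e-06), and was listed at 0 in ectoderm and mesoderm. Tekt2 averaged 6.00 FPKM in endoderm against 1.43 FPKM in streak (limma adjusted p = 8.5e-04). Tekt1 and Tekt2 were also the 2 list genes lower in mesoderm than in streak, with 1.81% of all genes called lower.

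**Figure D4:**
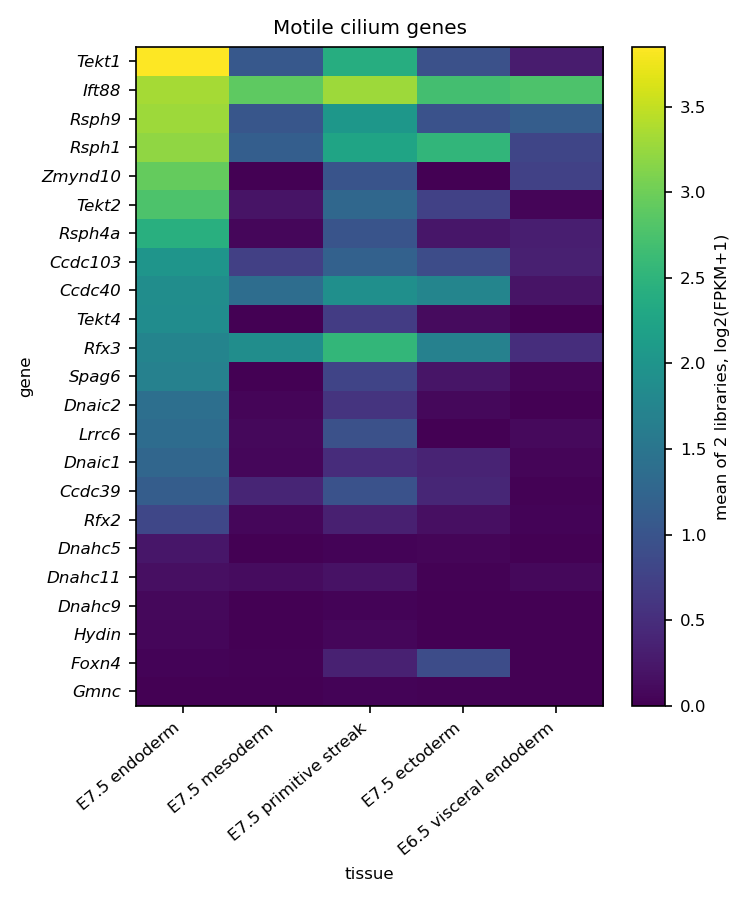
Mean of 2 libraries, in log2(FPKM+1), of the 23 listed motile cilium genes in E7.5 tissues and E6.5 visceral endoderm, sorted by E7.5 endoderm. Tekt1 is the brightest cell at 13.7 FPKM in E7.5 endoderm, the streak column is brighter than mesoderm for Tekt1 and Tekt2, and the dynein heavy chain genes near the bottom are dark in all 5 tissues.

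Other genes of the node and axial mesoderm divided between tissues. Of 15 listed genes 14 were in the tables and tested, and in E7.5 endoderm 4 rose and 1 fell against streak, 5 rose and 1 fell against mesoderm, and 6 rose and 1 fell against ectoderm, where 8.19%, 7.97% and 11.7% of all genes were called higher and 2.86%, 2.24% and 1.96% lower. Against mesoderm 2 rose without either mesoderm library or endoderm replicate 1, and 3 without endoderm replicate 2 or with a pseudocount of 0.1 FPKM. Against ectoderm 4 rose without ectoderm replicate 2 or endoderm replicate 2, with 0 lower in both. Foxa2 averaged 36.1 ± 6.63 FPKM in endoderm (SD, n = 2), against 0.905 FPKM in streak (log2 difference 4.28; limma adjusted p = 2.1e-06), 0.358 FPKM in ectoderm and 0.0534 FPKM in mesoderm. In visceral endoderm Foxa2 was as high or higher, with means of 50.8 FPKM at E6.5 and 35.2 FPKM at E5.5. T, the T-box factor brachyury of streak and notochord, was lower in endoderm than in streak. It averaged 46.8 ± 1.59 FPKM in endoderm against 313.7 ± 16.6 FPKM in streak (SD, n = 2; log2 difference -2.72; limma adjusted p = 9.3e-05). T was higher in E7.5 endoderm than in E6.5 visceral endoderm, which averaged 0.786 FPKM, by 4.75 (limma adjusted p = 2.2e-07). Gdf1 was the gene that fell against mesoderm and ectoderm. It averaged 1.81 FPKM in E7.5 endoderm against 11.9 and 8.09 FPKM there, with log2 differences of -2.19 and -1.70. Cfc1 averaged 53.6 FPKM in E7.5 endoderm and 5.58 FPKM in streak, but 81.5 FPKM in mesoderm and 72.6 FPKM in E6.5 visceral endoderm. Lefty2 averaged 21.2 FPKM in E7.5 endoderm, 3.62 FPKM in ectoderm and 90.5 FPKM in mesoderm. Sox9, a factor of notochord and of endoderm derivatives, was about as high in E7.5 ectoderm, at 5.19 and 9.57 FPKM, as in E7.5 endoderm. In E7.5 endoderm it averaged 7.87 FPKM, against 0.600 FPKM in E6.5 visceral endoderm (limma adjusted p = 1.4e-05). In that comparison, with 0.875% of all genes called lower, Lefty1, Nodal and Gsc fell, Lefty1 averaging 0.0889 FPKM against 207 FPKM and Nodal 6.49 FPKM against 70.8 FPKM. When any 1 of the 4 libraries compared was left out, 1 gene of the list was called lower.

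The hedgehog pathway was called in both directions, with 12 of 16 listed genes tested. Ihh, the other hedgehog ligand of early endoderm, rose in E7.5 endoderm against mesoderm, streak and ectoderm, averaging 2.39 FPKM against 0.0454, 0.126 and 0.0754 FPKM, by a log2 value of 1.70, 1.59 and 1.66 (limma adjusted p = 0.0054, 0.0089 and 0.0057). In visceral endoderm Ihh had 1.85 and 1.28 FPKM at E6.5 and 0.887 and 3.41 FPKM at E5.5. Its difference between E7.5 endoderm and E6.5 visceral endoderm was not called. Gli2, a transcription factor of the pathway, averaged 0.610 FPKM in E7.5 endoderm. It fell there against mesoderm, streak and ectoderm, which averaged 2.46, 3.27 and 3.92 FPKM. Boc and Gas1, co-receptors for hedgehog ligands, fell against mesoderm and streak. Hhip, an inhibitor that binds hedgehog ligands, rose against streak and, with Gli3, against E6.5 visceral endoderm, and Hhat, which acylates the ligands, rose against ectoderm. Hhip passed the filter only through E7.5 endoderm, which fixes its direction, and without it 1 gene of 11 rose against streak and 1 of 11 against E6.5 visceral endoderm. These genes lay below 5 FPKM and were singled out after their values were seen. The list came to 1 higher and 3 lower against mesoderm, 2 and 3 against streak, 2 and 1 against ectoderm and 2 and 0 against E6.5 visceral endoderm, and under quantile normalization to 1 and 4, 1 and 3, 1 and 2, and 0 and 0. The shares of all genes called higher and lower were 7.97% and 2.24%, 8.19% and 2.86%, 11.7% and 1.96%, and 3.39% and 0.875%. The higher count became 0 against streak without streak replicate 2 and against ectoderm without ectoderm replicate 2. With a pseudocount of 0.1 FPKM 1 gene was lower against mesoderm and 1 against streak.

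Secreted BMP antagonists and modulators other than Chrd and Nog had no common direction, with 10 of 15 tested. Cer1, which encodes an antagonist of nodal and BMP, averaged 412 ± 19.6 FPKM in E7.5 endoderm against 0.847 ± 0.172 FPKM in streak (SD, n = 2; log2 difference 7.81; limma adjusted p = 1.9e-07). It averaged 438 FPKM in E6.5 visceral endoderm and 68.2 FPKM in E7.5 mesoderm. Fst, which codes for follistatin, averaged 0.744 FPKM in endoderm against 23.8 FPKM in streak (log2 difference -3.85; limma adjusted p = 3.2e-04). Dand5, which encodes a nodal antagonist made at the node's edge and stands on the node list too, averaged 6.93 FPKM in endoderm against 1.76 FPKM in mesoderm (limma adjusted p = 0.024), and in streak it averaged 8.41 FPKM. Against streak 1 rose and 1 fell, against mesoderm 2 rose and 1, Bmper, fell, and against ectoderm 3 rose and 1, Chrdl1, fell. Of all genes 8.19%, 7.97% and 11.7% were called higher in these comparisons, and 2.86%, 2.24% and 1.96% lower. Against mesoderm 0 rose and 0 fell when any 1 of the 4 libraries compared was left out, and likewise with a pseudocount of 0.1 FPKM. Against ectoderm 1 rose without either endoderm library or ectoderm replicate 2, and also with that pseudocount, with low genes kept and under quantile normalization.

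After 4 days of culture Noto was listed at 0 in both epiblast and both visceral endoderm libraries, and Shh in 3 of the 4. Both cultured epiblast libraries listed Nog at 0, against 12.2 and 0.495 FPKM in cultured visceral endoderm, so no fold is given. The difference was called (limma adjusted p = 0.0083; 24.5% of genes called), but it rested on replicate 1 of visceral endoderm, without which the limma adjusted p was 0.30, and in a fit of the table alone it was 0.33. Foxj1 had 0.578 and 0.126 FPKM in cultured epiblast, against 2.81 and 0.0890 FPKM in cultured visceral endoderm, with a log2 difference of -0.61 (95% interval -1.41 to 0.19; limma adjusted p = 0.25). Chrd had 0.0742 and 0 FPKM in cultured epiblast, against 0.684 and 0.343 FPKM in cultured visceral endoderm, and was not tested.

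**Figure D5:**
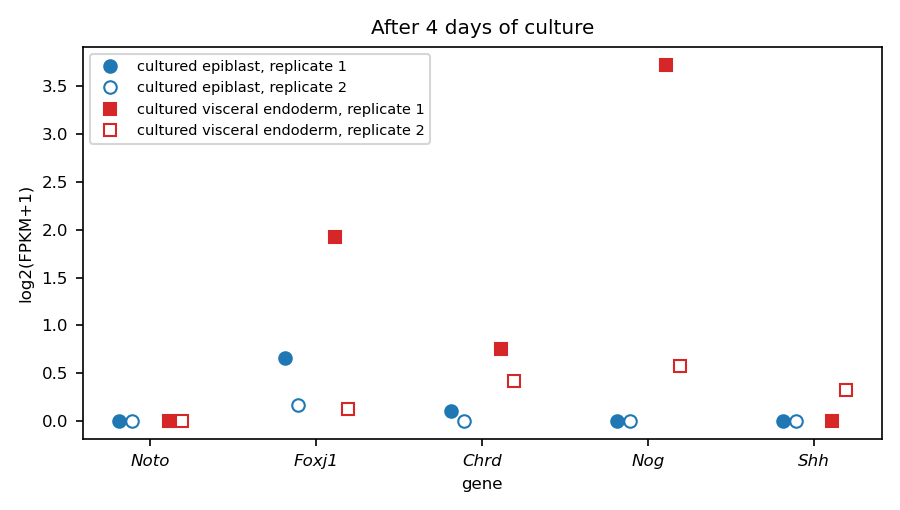
Expression of the 5 genes, as log2(FPKM+1), in epiblast (blue) and visceral endoderm (red) after 4 days of culture; filled symbols are replicate 1 and open symbols replicate 2. Nog and Foxj1 are high in visceral endoderm replicate 1 and near the epiblast values in replicate 2.

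The pair of cultured visceral endoderm libraries differed in markers as well. Replicate 1 had 210 FPKM of the ectoderm markers, 350 FPKM of the streak markers and 3743 FPKM of the visceral endoderm markers, and replicate 2 had 23.7, 36.0 and 1889 FPKM. Their part in the Nog and Foxj1 values was not tested. Whole embryos cultured for 2 days and for 1 day had at most 0.715 FPKM of any member, and Foxj1, Nog in 3 of the 4 libraries and Shh were listed at 0 there. No member could be tested between them.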

How the data were processed

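The data were RNA-seq of mouse embryos, deposited by the authors as FPKM per gene and library, made with TopHat2 2.0.11 and Cufflinks 2.0.2 on mm9, per the submitters' processing notes. Libraries were Smart-Seq2, per the labels' protocols. The 3 tables had been made separately, so no comparison crosses them. Of 78 samples, the 30 RNA-seq libraries were used, with sums of 272055 to 486836 FPKM in vivo. Some 27 symbols turned into dates were dropped, and values up to 1e-06 were set to 0.

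Shared genes with at least 1 FPKM in 2 libraries (13493 of 22563) entered 1 limma 3.58.1 model (R 4.3.3) of log2(FPKM+1). It had 15 groups, 15 residual degrees of freedom and a trended prior variance, with Benjamini-Hochberg adjustment in each of 21 comparisons, and was tested on simulated data. A member got a fold and p where the higher group's mean reached 1 FPKM. Listed genes were named from a mean of 5 FPKM, at most 5 a comparison by adjusted p, and genes of similar pattern as the first 3 by r, passing over Gm, Rik, Mir, Snor, LOC, AI and BC symbols. Other names were chosen after their values were seen. The members and gene lists were chosen with earlier results of these data known.

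Other kinds of refit were tried beside leaving out each library: the pseudocount lowered to 0.1, low genes kept, genes under 5 FPKM removed, quantile scaling, the replicate number as a block, each table fitted alone, and array weights. Of the listed genes, Disp1, Mcidas, Pkd1l1 and Hba-a1 had no row matched. Fragment numbers were not derived for culture of 1 and 2 days, where no shared step was clear. A deposited table of pooled expression and one of CpG methylation were not used here.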

Additional observations from a re-analysis of the deposited data

How the results depend on the processing

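Of 38 member tests, 24 were called. Under each of 7 other settings that tested them and with each of 30 libraries left out in turn, 11 of the 24 stayed called, among them Noto in E7.5 endoderm against mesoderm and ectoderm. The 5 FPKM filter removed Chrd and Nog, so that 9 of the 11 were run under all 7 settings. Of the 14 others, 11 were never called. The replicate numbers share only a number (deviations correlated from -0.27 to 0.44, with 2 pairs in each comparison). A replicate block left the calls at 13, 4, 3, 3 and 1 in the 5 families of tests (E7.5 pairs, E6.5 to E7.5, epiblast and visceral endoderm, blastocyst to E5.5, culture), as without it.

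A pseudocount of 0.1 left 2 calls from E6.5 to E7.5. The 5 FPKM filter left 1 between epiblast and visceral endoderm and 0 in culture, as it removed genes from the test. The fit within each table also left 0 in culture. With 1 library left out the counts ran from 11 to 13, 3 to 4, 1 to 4, 2 to 3 and 0 to 2 in the order above. The 1 call between epiblast and visceral endoderm came without E6.5 visceral endoderm replicate 2, and the 0 in culture without cultured visceral endoderm replicate 1.

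Directions turned only in tests that were not called. Nog in E7.5 endoderm against E6.5 visceral endoderm became -0.15 under quantile normalization and ran from -0.18 to 0.32 with 1 library left out. Over libraries left out, Nog in E6.5 against E5.5 visceral endoderm ran from -1.52 to 0.13 and its change in difference from -0.20 to 1.45. Foxj1 in E5.5 epiblast against visceral endoderm ran from -0.17 to 0.086 (0.02 without epiblast replicate 2), and after 4 days of culture from -1.51 to 0.29. The cause was not tested.

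Quantile normalization moved the split of calls. It was 1073 higher and 674 lower, against 1583 and 264 in the reported fit, for E7.5 endoderm over ectoderm, and 610 and 1023, against 3334 and 336, for E6.5 over E5.5 visceral endoderm. The few fragments behind Shh and Nog limit their precision.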
